A study of Mus musculus with 6 samples.

Results

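Genes for the activators of the proteasome, for its inhibitor and for the chaperones that assemble it were compared between muscle of ovariectomized mice with a placebo pellet (OVX) and with an estradiol pellet (OVX + E2). The 8 genes are Psme1, Psme2, Psme3 and Psme4 (activators), Psmf1 (inhibitor), and Psmg1, Psmg2 and Pomp (assembly chaperones). Every probe set annotated with one of these symbols alone was used, which gave 19 of the 45101 probe sets of the array and covered 7 of the 8 genes. Psme2 had no probe set of its own, since the 1 probe set listing it also lists Psme2b, a near copy of the gene, and no value is given for it. Psme4 had 6 probe sets, Psmf1 4, Psme3 and Psmg2 3 each, and Psme1, Psmg1 and Pomp 1 each. The mice were female C57BL/6, ovariectomized at 4 months of age in both groups, and carried for 60 days a placebo pellet or a pellet holding 0.18 mg of E2 (17β-estradiol). Each group had 3 samples of total RNA, each on its own Affymetrix mouse genome array, and no group with intact ovaries was measured. Values are log2 signals without a physical unit, and differences are given as OVX + E2 minus OVX. The sources used here do not say that every array comes from its own mouse, so the p-values reflect no more than how these samples vary, and that variation may be technical. In whole muscle, fewer cells of a type and less RNA per cell cannot be told apart.

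The proteasome is a barrel of stacked alpha and beta rings, the core particle, which degrades proteins and is opened by caps that dock on its ends. Most ubiquitin-tagged proteins enter through the regulatory cap with its ATPase ring, while the activators of the PA28 family and PA200 open the gate without ubiquitin or ATP. Psme1 and Psme2 encode PA28α and PA28β, which form a mixed ring induced by interferon-γ and linked to antigen processing, Psme3 encodes the nuclear PA28γ, and Psme4 encodes PA200. Psmf1 encodes PI31, first described as an inhibitor of the core particle. Psmg1 and Psmg2 encode the paired chaperones PAC1 and PAC2, which guide assembly of the alpha ring, and Pomp encodes the maturation protein that guides the beta ring and is itself degraded when the particle is complete. In skeletal muscle the ubiquitin-proteasome system carries out much of the breakdown of myofibrillar proteins.

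In assembly GRCm38.p6 Psme1 lies at chr14:55578494-55581527 and Psme2 at chr14:55587440-55591101, with 5912 bases between them. Psme3 lies at chr11:101316213-101323537, Psme4 at chr11:30771775-30881150, Psmf1 at chr2:151716062-151744199, Psmg1 at chr16:95979933-95990960 and Pomp at chr5:147860628-147875784. The 250 bases before the transcription start are shown for 3 activator genes, because the treatment is a ligand of the estrogen receptors and these genes had the member probe sets with the lowest differences. The sequences are from RefSeq, each on its gene's strand, which is the plus strand for all 3, at chr14:55578244-55578493 for Psme1, chr11:101315963-101316212 for Psme3 and chr11:30771525-30771774 for Psme4. Capitals mark every match, on either strand, to the 7 motifs listed after the sequences.
Psme1: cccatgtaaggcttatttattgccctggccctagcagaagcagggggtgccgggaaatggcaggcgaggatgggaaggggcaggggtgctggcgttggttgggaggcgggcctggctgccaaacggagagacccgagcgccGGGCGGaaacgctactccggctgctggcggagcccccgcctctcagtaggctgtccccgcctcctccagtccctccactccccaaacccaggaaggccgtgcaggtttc
Psme3: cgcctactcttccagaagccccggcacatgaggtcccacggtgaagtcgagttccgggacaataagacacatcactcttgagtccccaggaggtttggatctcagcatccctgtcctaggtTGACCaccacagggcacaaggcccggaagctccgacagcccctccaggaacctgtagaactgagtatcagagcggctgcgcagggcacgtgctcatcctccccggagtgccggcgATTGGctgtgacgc
Psme4: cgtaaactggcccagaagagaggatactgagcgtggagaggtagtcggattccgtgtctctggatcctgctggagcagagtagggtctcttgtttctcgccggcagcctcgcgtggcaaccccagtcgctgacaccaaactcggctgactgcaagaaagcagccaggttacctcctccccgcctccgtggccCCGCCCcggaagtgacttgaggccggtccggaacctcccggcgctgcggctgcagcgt
The motifs were the full estrogen response element, its single arm GGTCA, the antioxidant response core TGANNNNGC, the interferon-stimulated response element, the interferon-γ activated site TTCNNNGAA, the CCAAT box and the GC box GGGCGG. The full element holds this arm on each strand. In this window Psme3 holds 1 such arm and 1 CCAAT box, and Psme1 and Psme4 hold 1 GC box each. The full element was found in none of the 8 windows matched to members, which stand for 7 genes, 2 of the windows being of Psme2. Over all 32851 windows of the same length it was found in 0.0639%. The single arm was found in 1 of the 8 and in 35.2% of all windows. The GC box was found in 5 of the 8, both Psme2 windows among them, and in 32.7% of all. Of 29 windows of core and cap subunits, 51.7% held the single arm and 51.7% the GC box. The interferon-stimulated element was found in 0 of the 8 (2.98% of all), the activated site in 1, of Psmg1 (7.02%), the antioxidant core in 2, of Psme2 and Psmg1 (35.2%), and the CCAAT box in 1 (33.8%). These matches describe letters only, and binding was not measured.

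Several facts of the whole series bear on the values. The sample labels say left ventricle, whereas the study describes soleus. All 10 of 10 skeletal muscle markers reached the top 5% of the array with their brightest probe set, and 0 of 7 heart markers, such as Myh6 and Nppa, did. Fast-fibre genes set the arrays numbered 3 apart. The mean deviation of 8 fast-fibre genes, such as Myh4 and Actn3, reached 1.04 for replicate 3 of OVX and −1.75 for replicate 3 of OVX + E2, and the remaining arrays ran from −0.21 to 0.41. Bright probe sets were lower in OVX + E2 across the array. Of the 8643 probe sets with a mean above 8, 90.4% had a difference below 0 (median −0.13), against 43.3% of those at 8 or less (median 0.012). The 18 hybridization controls, transcripts added to every array, were lower in 18 of 18, with a median of −0.11, so each member is set beside probe sets of its own brightness.

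Across the 19 probe sets the members lay slightly lower in OVX + E2, and about as many lay above as below the median of probe sets of like brightness. The difference was below 0 in 15 of 19, with a median of −0.10, against 52.3% of all probe sets and a median of −0.0049. In the fit made here no member passed at the study's unadjusted p of 0.001, where 96 probe sets, or 0.213% of all, did. The study reports more probe sets at this threshold, so the fit does not reproduce its calls exactly. The smallest adjusted p of a member was 0.32 (limma, Benjamini-Hochberg over all probe sets). At an unadjusted p under 0.05 from limma, 5 of the 19 were lower (Psme1, 1 of Psme3, 2 of Psme4 and Psmg1), against 9.43% of all probe sets. Of the 10 members with a mean above 8, 4 were lower, against 32.8% of all probe sets that bright, 0 were higher (0.509% of those) and 3 lay apart with OVX + E2 lower (33.6%). Among the 9 at 8 or less, 1 was lower (3.89% of all such probe sets), 1 was higher (5.26%) and 2 lay apart with OVX + E2 lower (6.14%). At the same level 1 of the 19 was higher (a dim probe set of Psmg2), against 4.35% of all. The 3 OVX and 3 OVX + E2 arrays did not overlap, with OVX + E2 lower, in 5 of 19 (11.4% of all probe sets), and with OVX + E2 higher in 2 of 19 (9.76% of all). With 3 arrays against 3 an exact permutation test over 20 labelings cannot go below a two-sided p of 0.1, which each of these 7 reached. The count of 5 lower became 0 when OVX + E2 replicate 3 was left out, 3 when OVX + E2 replicate 2 was, 2 when OVX replicate 1 was, 2 without both arrays numbered 3, 2 after cyclic loess and 0 after quantile normalization. The 1 higher probe set was no longer counted when OVX replicate 1, OVX replicate 3, OVX + E2 replicate 1 or OVX + E2 replicate 3 was left out, without both arrays numbered 3, with the replicate block, or after cyclic loess or median centring.

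**Figure D1:**
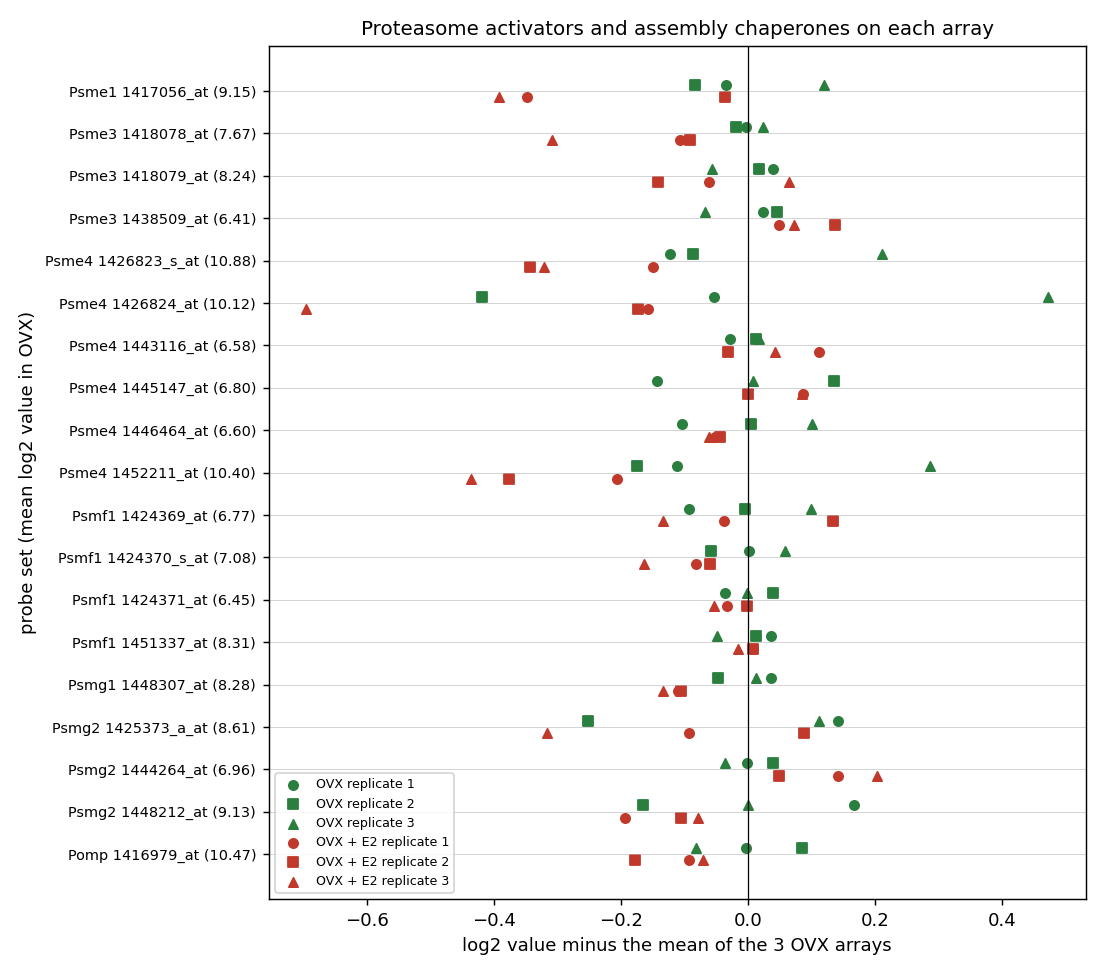
Log2 value minus the mean of the 3 OVX arrays (horizontal axis) for the 19 probe sets (vertical axis, with the mean log2 value in OVX in parentheses), with OVX arrays green, OVX + E2 arrays red, and a circle, square and triangle for replicates 1, 2 and 3. The widest spread is that of Psme4 probe set 1426824_at, which runs from 9.43 on OVX + E2 replicate 3 to 10.59 on OVX replicate 3, and the OVX + E2 arrays lie wholly left of the OVX arrays in 5 probe sets.

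Psme1, the α subunit of the PA28 ring, was lower on 2 of the 3 OVX + E2 arrays. Its probe set 1417056_at read 9.11, 9.06 and 9.27 on the OVX arrays, against 8.80, 9.11 and 8.76 on the OVX + E2 arrays. OVX + E2 replicate 2 lay inside the OVX range, so the groups overlapped. The means were 9.15 ± 0.11 and 8.89 ± 0.19 (SD, n = 3 each), a difference of −0.26 (standard error 0.10, 95% interval −0.50 to −0.021, adjusted p = 0.35 from limma). It passed the unadjusted 0.05 with all arrays, without OVX replicate 2 (−0.30) and without OVX + E2 replicate 2 (−0.37). It also passed after median centring, among probe sets brighter than the median, with a variance that follows brightness and with array weights. It no longer passed without OVX replicate 1 (−0.28), OVX replicate 3 (−0.20), OVX + E2 replicate 1 (−0.21) or OVX + E2 replicate 3 (−0.19). Nor did it pass without both arrays numbered 3 (−0.13), with the replicate block, after cyclic loess (−0.13) or after quantile normalization (−0.11).

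Genes that share the interferon response with Psme1 are set beside it. The 3 inducible beta subunits of the immunoproteasome had 0 genes at an unadjusted p under 0.05. Psmb8 differed by −0.11 (standard error 0.11), Psmb9 by −0.038 (standard error 0.059) and Psmb10 by −0.095 (standard error 0.080). Of 12 measured genes of interferon signalling and antigen presentation 10 were below 0, against 54.0% of all genes, and 1 was lower at 0.05, against 13.0%, the peptide-loading factor Tapbp (−0.23, standard error 0.060, adjusted p = 0.308 from limma). The neighbours of Tapbp in brightness had a median of −0.13, and after cyclic loess its difference was −0.11, not past 0.05. H2-K1, a class I histocompatibility gene with close relatives on the array, differed by −0.36 (standard error 0.15), and Ifit3, an interferon-induced gene, by −0.14 (standard error 0.070), and neither passed. Of the 12 genes 11 were below the median of probe sets of like brightness. Their mean log2 value was 8.16, 8.37 and 7.93 on the OVX arrays, against 8.01, 7.99 and 8.05 on the OVX + E2 arrays. It was lowest on OVX replicate 3, where Psme1 was highest. The mean log2 value of 9 measured leukocyte markers ran from 7.43 to 7.56 in OVX and from 7.35 to 7.43 in OVX + E2, and 2 of the 9 were lower at 0.05, against the same 13.0% of all genes. These were Cd74 (−0.32) and H2-Aa (−0.42), which weigh heavily in that mean. The median difference of the 9 was smaller, at −0.053, beside −0.0065 for their neighbours in brightness, and 7 of the 9 were below 0. The part of leukocytes in the Psme1 difference was not tested.

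Psme3, which encodes the nuclear PA28γ, gave no common direction over its 3 probe sets. Probe set 1418078_at read 7.67, 7.65 and 7.70 on the OVX arrays, against 7.57, 7.58 and 7.37 on the OVX + E2 arrays. The groups did not overlap, and OVX + E2 replicate 3 lay furthest below. The difference was −0.17 (standard error 0.063, adjusted p = 0.34 from limma) and passed the unadjusted 0.05, as it did after cyclic loess (−0.14). It no longer passed without OVX replicate 1 (−0.17), OVX replicate 2 (−0.18), OVX replicate 3 (−0.16) or OVX + E2 replicate 3 (−0.10), without both arrays numbered 3 (−0.088), or after quantile normalization (−0.12). Probe set 1418079_at, made from the same sequence record, read 8.28, 8.26 and 8.18 on the OVX arrays, against 8.18, 8.10 and 8.30 on the OVX + E2 arrays, with OVX + E2 replicate 3 highest of the 6 arrays. Its difference was −0.047 (95% interval −0.19 to 0.094) and was above 0 after cyclic loess (0.043), and it passed the unadjusted 0.05 without both arrays numbered 3 (−0.13). The dim probe set 1438509_at was higher in OVX + E2, at 6.46, 6.55 and 6.48 against 6.43, 6.46 and 6.34, with a difference of 0.085 (standard error 0.047). Its groups did not overlap, by less than the rounding shown. Over the 6 arrays Pearson's r between pairs of these probe sets was −0.29, −0.51 and −0.24, so they do not describe one profile.

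Psme4, the gene of PA200, had the lowest differences of all members, in its 3 bright probe sets. Probe set 1426823_s_at read 10.76, 10.79 and 11.09 on the OVX arrays, against 10.73, 10.54 and 10.56 on the OVX + E2 arrays. Probe set 1452211_at read 10.29, 10.23 and 10.69 on the OVX arrays, against 10.20, 10.02 and 9.96 on the OVX + E2 arrays. In both the groups did not overlap, the gap between them was narrow, and OVX replicate 3 stood well above the other arrays. The differences were −0.27 (standard error 0.097, adjusted p = 0.33) and −0.34 (standard error 0.12, adjusted p = 0.34 from limma), both past the unadjusted 0.05. Probe set 1426824_at read 10.07, 9.70 and 10.59 on the OVX arrays, against 9.96, 9.95 and 9.43 on the OVX + E2 arrays. These groups overlapped widely, and its difference of −0.34 had a 95% interval from −0.90 to 0.22. Without OVX replicate 3 the first pair of differences was −0.17 and −0.20, still past it. It no longer passed without OVX + E2 replicate 2 (−0.24 and −0.32) or OVX + E2 replicate 3 (−0.25 and −0.29). Without both arrays numbered 3 the 3 differences were −0.14, −0.15 and 0.071, after cyclic loess −0.13, −0.19 and −0.19, and after quantile normalization −0.11, −0.16 and −0.17, and none of these passed. Probe set 1426824_at passed only without OVX replicate 2 (−0.55).

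The 3 bright probe sets of Psme4 come from 1 sequence record and followed each other over the arrays, with Pearson's r of 0.98, 0.88 and 0.79 between pairs. Probe sets 1426824_at and 1452211_at peaked on OVX replicate 3 and had their minimum on OVX + E2 replicate 3, as the fast-fibre genes did, and so did Psme1, Psme3 1418078_at and Psmf1 1424370_s_at. Over the 6 arrays Pearson's r with the fast-fibre score was 0.78 for 1426823_s_at, 0.81 for 1452211_at and 0.83 for 1426824_at, with exact permutation p of 0.086, 0.078 and 0.064 and Spearman's rho of 0.77, 0.77 and 0.71 (exact permutation p of 0.10, 0.10 and 0.14). The groups were pooled in r, in rho and in the permutations, so these values mix the difference between groups with variation within them. The score itself differed by −1.04 between the groups. The relation was not particular to Psme4. For Psme3 1418078_at r was 0.93 and for Psmf1 1424370_s_at 0.86, with exact permutation p of 0.026 and 0.0375, smaller than those of Psme4, and with rho of 0.60 for each (exact permutation p of 0.24). Member probe sets ran both ways with the score, down to r of −0.78 for Psmg2 1444264_at (exact permutation p of 0.065). Over the 19 member probe sets tested against this score the smallest Benjamini-Hochberg adjusted p was 0.27 for r and 0.57 for rho in these exact permutation tests, and this comparison was added after the values were seen. Without the 2 arrays farthest from the median score, the ones numbered 3, r was 0.90, 0.76 and −0.27 for Psme4, 0.18 for Psme3 1418078_at and −0.16 for Psmf1 1424370_s_at, so the relations of 1426824_at and of these last ones rest on those arrays. The part of fibre composition in the Psme4, Psme3 and Psmf1 differences was not tested. The 3 dim probe sets of Psme4, with means from 6.58 to 6.83, differed by 0.040, 0.057 and −0.053, each with a 95% interval that holds 0.

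**Figure D2:**
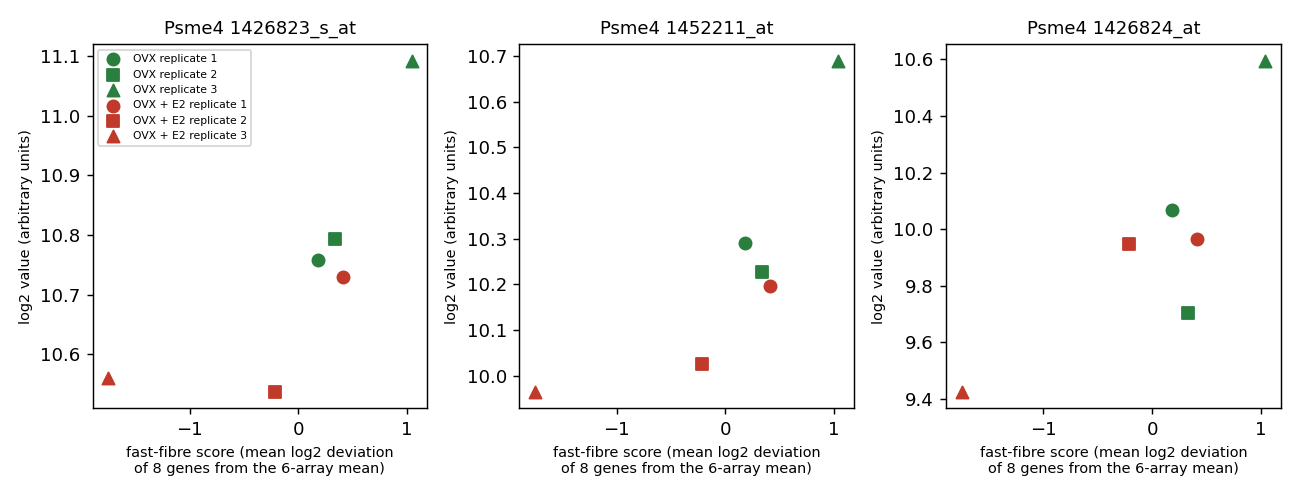
Log2 value of the 3 bright Psme4 probe sets (vertical axes, arbitrary units) against the fast-fibre score, the mean log2 deviation of 8 fast-fibre genes from the 6-array mean (horizontal axis), with OVX arrays in green and OVX + E2 arrays in red. OVX replicate 3 (score 1.04) lies at the upper right and OVX + E2 replicate 3 (score −1.75) at the far left in each panel. Psme3 1418078_at and Psmf1 1424370_s_at, not drawn, had r of 0.93 and 0.86 with the same score.

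Psmf1, which encodes PI31, showed little difference in its brightest probe set. Probe set 1451337_at read 8.35, 8.32 and 8.26 on the OVX arrays, against 8.32, 8.32 and 8.30 on the OVX + E2 arrays, and the OVX + E2 arrays lay inside the OVX range. The difference was −0.00080, with a 95% interval from −0.092 to 0.090. It thereby stood above 88.6% of the probe sets nearest in brightness, whose median was −0.11. After quantile normalization it was 0.11, past the unadjusted 0.05, and after cyclic loess 0.096, not past it. The dim probe set 1424370_s_at, from the same sequence record, read 7.08, 7.02 and 7.14 on the OVX arrays, against 6.996, 7.02 and 6.91 on the OVX + E2 arrays. The groups did not overlap, by less than the rounding shown, with a difference of −0.10 (standard error 0.048), not past 0.05, and of −0.12 after cyclic loess, past it. It also passed without OVX replicate 2 (−0.13) and after median centring. The remaining pair of dim Psmf1 probe sets, with means of 6.44 and 6.76, differed by −0.030 and −0.013, and their groups overlapped.

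Psmg1, the gene of the alpha-ring chaperone PAC1, read 8.32, 8.24 and 8.30 on the OVX arrays, against 8.17, 8.18 and 8.15 on the OVX + E2 arrays. The groups did not overlap, and the OVX + E2 arrays lay within a narrow range. The difference of −0.12 (standard error 0.039, 95% interval −0.21 to −0.027) had the smallest p of any member (adjusted p = 0.32 from limma). Its neighbours in brightness had a median of −0.11, and after cyclic loess the difference was −0.026. It passed the unadjusted 0.05 with all arrays, and no longer did after cyclic loess or quantile normalization, without both arrays numbered 3 (−0.10), with a variance that follows brightness, without OVX replicate 1 (−0.10) or without OVX + E2 replicate 3 (−0.11).

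Psmg2, the gene of the partner chaperone PAC2, lies at chr18:67641587-67654181 and spread widely within groups. Probe set 1448212_at read 9.29, 8.96 and 9.13 on the OVX arrays, against 8.93, 9.02 and 9.05 on the OVX + E2 arrays. Probe set 1425373_a_at read 8.75, 8.36 and 8.72 on the OVX arrays, against 8.52, 8.70 and 8.29 on the OVX + E2 arrays. Both overlapped, with differences of −0.13 (95% interval −0.32 to 0.069) and −0.11 (−0.42 to 0.21), and both were near 0 after cyclic loess (0.0063 and 0.0039). Probe set 1448212_at passed the unadjusted 0.05 only without OVX replicate 2 (−0.21). The dim probe set 1444264_at went the other way, at 6.96, 7.003 and 6.93 on the OVX arrays, against 7.11, 7.01 and 7.17 on the OVX + E2 arrays. Its groups did not overlap and it was higher by 0.13 (standard error 0.050, adjusted p = 0.34 from limma), above 96.6% of its neighbours in brightness. Over the 6 arrays its Pearson's r with the other Psmg2 probe sets was −0.75 and −0.52.

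Pomp, the beta-ring maturation factor, overlapped by 1 array. It read 10.47, 10.56 and 10.39 on the OVX arrays, against 10.38, 10.29 and 10.40 on the OVX + E2 arrays. OVX + E2 replicate 3 lay just above OVX replicate 3. The difference was −0.11 (standard error 0.055, 95% interval −0.24 to 0.015, adjusted p = 0.40 from limma). The median of its neighbours was −0.16, Pomp stood above 64.2% of them, and after cyclic loess its difference was 0.033. It passed the unadjusted 0.05 without OVX replicate 3 (−0.16), without both arrays numbered 3 (−0.18), with array weights and after median centring, and not with all arrays as deposited.

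Each member was set beside the 1000 probe sets nearest to it in mean value. Of the 19 differences 10 were below the median of their neighbours and 9 above. Their percentiles among neighbours ran from 7.7 to 96.6. Neither the activators nor the chaperones kept to one end. Of the activators, Psme1 stood at percentile 12.5, the bright Psme4 probe sets at 13.7, 9.2 and 9.4 and the dim ones at 10, 56.4 and 70.5, and the Psme3 probe sets at 9.6, 74.0 and 86.3. The lowest and a high place belonged to the inhibitor Psmf1, whose probe sets stood at 7.7, 16.8, 26.6 and 88.6. Of the chaperones, Psmg1 stood at 44.6, Pomp at 64.2 and the Psmg2 probe sets at 57.3, 58.2 and, the highest of the 19, 96.6. These percentiles are descriptions and carry no test, and probe sets of 1 gene share a transcript. After cyclic loess 10 of the 19 were below 0, against 51.2% of all probe sets. The 2 at an unadjusted p under 0.05 there were lower (Psme3 1418078_at and Psmf1 1424370_s_at), against 4.02% of all, and 0 were higher, against 3.57%.

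**Figure D3:**
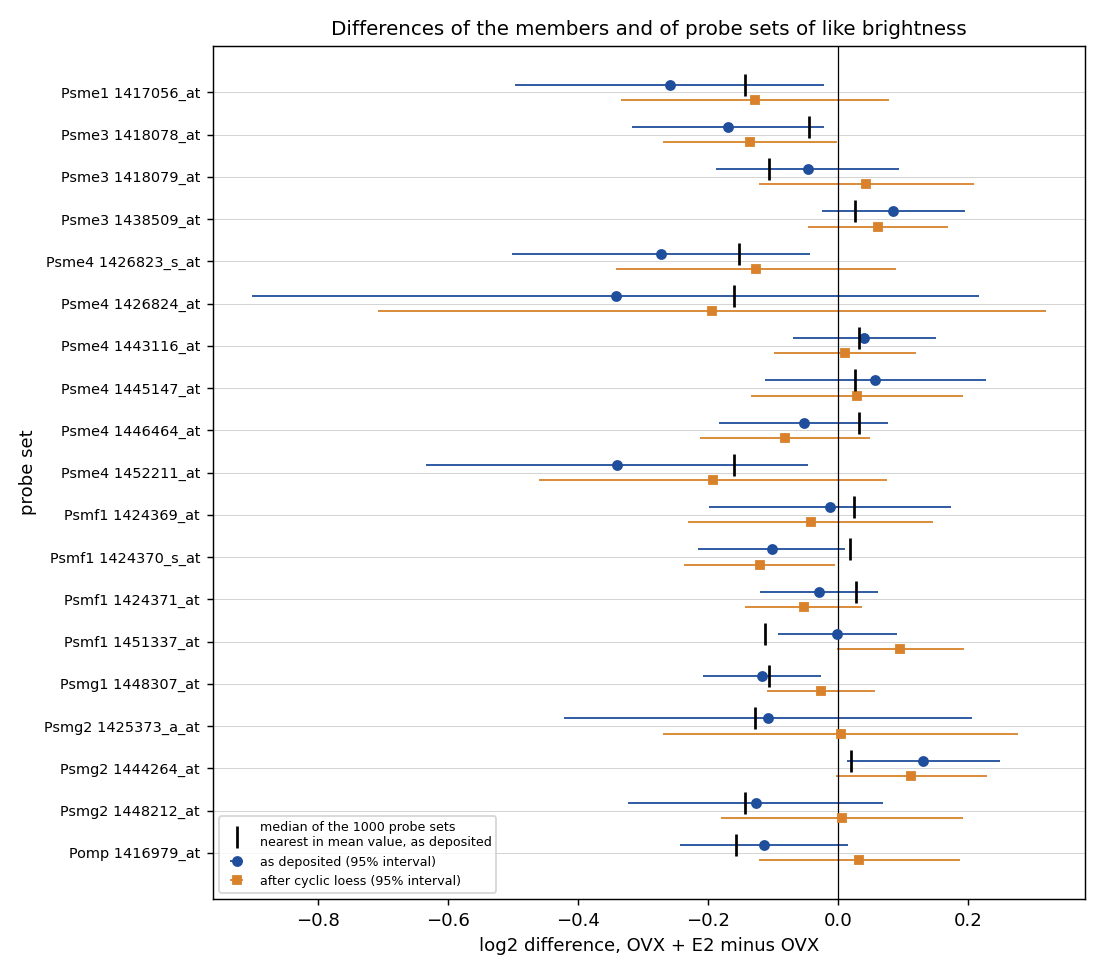
Log2 difference, OVX + E2 minus OVX (horizontal axis), of the 19 probe sets (vertical axis) as deposited (blue) and after cyclic loess (orange), with 95% intervals from limma, and the median difference of the 1000 probe sets nearest in mean value (black bars). Psme1 and the bright Psme4 probe sets lie left of their bars, Pomp and the brightest Psmf1 probe set lie right of theirs, and after cyclic loess the interval of 17 of the 19 holds 0.

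Subunits of the proteasome itself had a lower median difference than the members. One probe set per gene, the one with the largest interquartile range, was used. Of 32 measured genes of the core particle and of the regulatory cap 30 were below 0, against 54.0% of all genes, and 20 were lower at an unadjusted p under 0.05 from limma, against 13.0%, while 0 were higher, against 6.01%. Every subunit counted as lower had a mean above 8. Of all probe sets that bright, 90.4% were below 0, 32.8% were lower at 0.05 and 0.509% were higher. At 0.001, 5 were lower, against 0.39% of all genes, and 0 higher, against 0.022%, and these shares are not matched for brightness. The median of the subunits was −0.20, beside −0.15 for their neighbours in brightness, and 24 of the 32 were below the median of their own neighbours. For the brightest probe set of each of the 7 measured members, all with a mean above 8, the median was −0.12. Of these 7, 3 were lower at 0.05, against 32.8% of all probe sets that bright. Below the median of their neighbours lay 3, and above it 4. With the probe set chosen as for the subunits, the 3 measured activators had a median of −0.26, beside −0.14 for their neighbours. The 3 chaperones had −0.11 beside −0.13, and Psmf1 had −0.013 beside 0.024. The difference between members and subunits was not tested. After cyclic loess the subunits had a median of −0.057 and 7 lower at 0.05, after quantile normalization 3, and without both arrays numbered 3, in the deposited values, 16.

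Among the 7 beta-ring genes, which include the catalytic subunits, 5 were lower at 0.05, with Psmb6 at −0.26 (standard error 0.040) and Psmb5 at −0.25 (standard error 0.041), both catalytic and past 0.001, and Psmb3 at −0.35 (standard error 0.12). Psmb6 read 10.18, 10.27 and 10.21 on the OVX arrays, against 9.96, 9.99 and 9.94 on the OVX + E2 arrays, with no overlap. Of the 6 ATPase subunits 5 were lower, among them Psmc4 (−0.22, standard error 0.037), past 0.001, Psmc5 (−0.25, standard error 0.047) and Psmc2 (−0.20, standard error 0.039). Psmc5 and Psmc2 did not pass 0.001 in the fit made here. Of the 12 non-ATPase subunits 7 were lower, among them Psmd3 (−0.28, standard error 0.049) and Psmd11 (−0.26, standard error 0.047), both past 0.001, and Psmd14 (−0.20, standard error 0.045), the deubiquitinating subunit. Psmb5, Psmb6, Psmc2, Psmc4, Psmc5, Psmd3 and Psmd11 stand in the study's list of called genes, and since these arrays chose that list, their direction is not independent evidence. Of the 7 alpha-ring genes, whose assembly Psmg1 and Psmg2 guide, 3 were lower at 0.05: Psma5 (−0.20, standard error 0.060), Psma7 (−0.20, standard error 0.060) and Psma6 (−0.15, standard error 0.048). These thresholds are unadjusted, and no adjusted p of the genes named here was below 0.308.

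**Figure D4:**
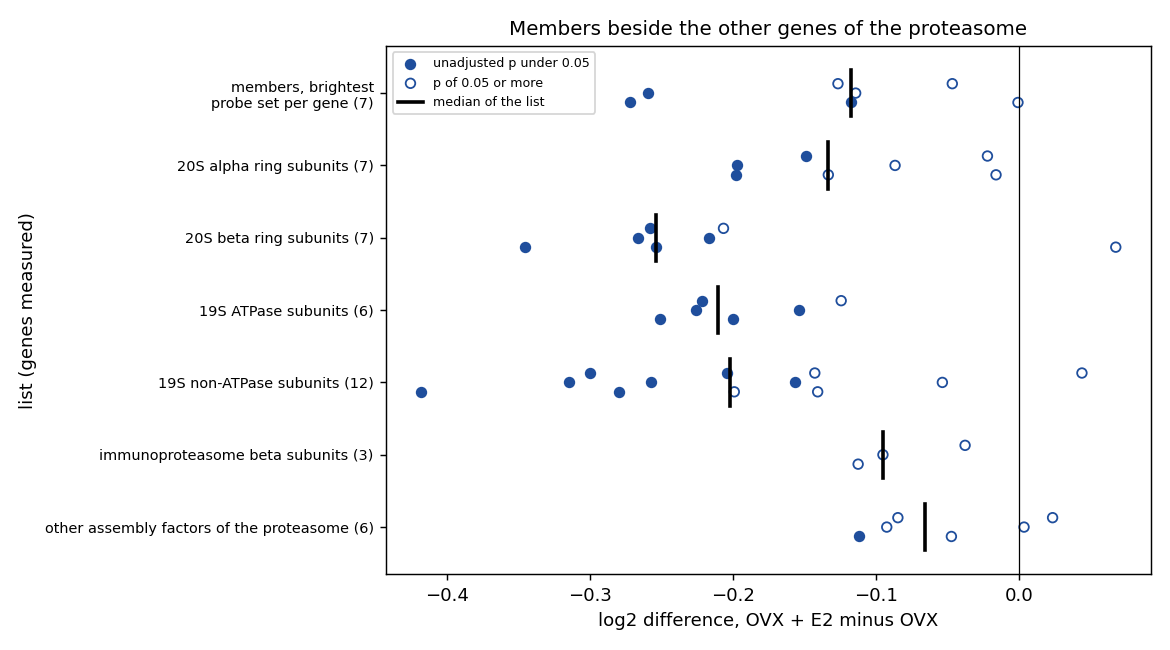
Log2 difference, OVX + E2 minus OVX (horizontal axis), of each gene in 7 lists (vertical axis, with the number of genes measured). Filled circles have an unadjusted p under 0.05 from limma, open circles do not, and black bars are medians. The medians are −0.12 for the members (brightest probe set of each gene), −0.13 for the alpha ring, −0.25 for the beta ring, −0.21 for the ATPase subunits, −0.20 for the non-ATPase subunits, −0.095 for the inducible subunits and −0.066 for the other assembly factors.

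Assembly factors outside the 8 genes had, as a list, about the same median as probe sets of like brightness. Of 6 measured, 4 were below 0, against 54.0% of all genes, and 1 was lower at 0.05, against 13.0%. It was Akirin2, which takes part in nuclear import of proteasomes (−0.11, standard error 0.045). Its neighbours in brightness had a median of −0.16, and after cyclic loess its difference was above 0 (0.036). Psmg4, a further alpha-ring chaperone, differed by −0.085 (standard error 0.045), and Psmd5, a chaperone of the cap, by −0.093 (standard error 0.058). Their list had a median of −0.066, beside −0.067 for their neighbours in brightness.

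The genes most like Psme1, Psme4 and Pomp in profile were taken by Pearson's r over the 6 arrays, among 19426 single-symbol probe sets brighter than the median. For Psme1 they were Vma21 (r = 0.9998), Psma4 (0.998), an alpha-ring subunit, and Vps26a (0.995). For the brightest Psme4 probe set they were Anapc5 (0.999), Mylk2 (0.998), the myosin light chain kinase of skeletal muscle, and Zbtb18 (0.997). For Pomp they were Tmem214 (0.998), Atrx (0.997) and Pcyox1 (0.994). With 6 arrays and so many candidates, values this near to 1 describe the ranking only.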

How the data were processed

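Muscle RNA of 3 OVX and 3 OVX + E2 samples was measured on Affymetrix mouse genome arrays. The deposited log2 values were made by the authors in R 2.14.2 through background correction, variance stabilizing normalization and median polish over the probes of a probe set. Scans and detection calls were not used, and arrays have no read depth, so their number limits the precision. Probe sets were named by the platform annotation (34958 with 1 symbol, 932 with several, 9211 with none). All 45101 probe sets, with 64 control probe sets, entered 1 linear model without covariates (lmFit, then eBayes, two-sided; limma 3.58.1, R 4.3.3), and Benjamini-Hochberg adjustment ran over all of them. The thresholds were the study's unadjusted 0.001 and a looser 0.05. The neighbours of a probe set are the 500 on either side in rank of mean value. The members, the gene lists, the naming rule and the split at a mean of 8 were chosen with earlier results of these data known. The naming rule takes all members, up to 3 genes of smallest p per proteasome list, the study's called proteasome genes, markers, and the 3 genes most like Psme1, Psme4 and Pomp in profile. It also asked for the genes most like Psme2, which has no probe set of its own. Gene positions and promoters came from RefSeq for GRCm38.p6, which holds windows of 7 of the 8 genes. The fit was tested on simulated data. Alternatives tried were median centring, cyclic loess (3 iterations), quantile normalization, a brightness filter, a variance trend, array weights, the replicate number as a block, other neighbour windows, the brightest probe set per gene, and leaving out arrays. RT-qPCR, immunoblots and the skmERαKO mice were not analysed here.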

Additional observations from a re-analysis of the deposited data

How the results depend on the processing

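No member passed at 0.001 or at an adjusted p under 0.05 in limma under any alternative run. Of the 19 differences 10 were below the median of their neighbours with 250, 500 or 1000 probe sets on either side and after cyclic loess. The number of members lower at 0.05 (5) was 2 after cyclic loess, 0 after quantile normalization, 2 with the replicate block, 2 without both arrays numbered 3, and 0 to 7 when single arrays were left out. The number higher (1) was 0 after cyclic loess, 2 after quantile normalization, 0 after median centring, 0 with the replicate block, 0 without both arrays numbered 3, and 0 to 1 when single arrays were left out. The number of members whose groups lay apart was, for lower values (5), 2 after quantile normalization and 2 after cyclic loess, and for higher values (2), 1 after cyclic loess and 0 after median centring. The number of core and cap subunits lower at 0.05 (20) was 7 after cyclic loess and 3 after quantile normalization, 23 with the brightest probe set per gene, and 17 to 21 when single arrays were left out. The cause was not tested.

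The sign of 9 probe sets turned under an alternative, among them Psme4 1426824_at, one of the lowest differences as deposited (−0.34). After quantile normalization the difference was 0.060 for Psme3 1418079_at, 0.11 for Psmf1 1451337_at, 0.024 for Psmg2 1425373_a_at, 0.023 for Psmg2 1448212_at and 0.054 for Pomp 1416979_at, and after cyclic loess it was 0.043, 0.096, 0.0039, 0.0063 and 0.033 in that order. With array weights Psmf1 1424369_at was 0.014. Without both arrays numbered 3 Psme4 1426824_at was 0.071, Psme4 1446464_at 0.0011, Psmf1 1424369_at 0.097 and Psmg2 1425373_a_at 0.053. When single arrays were left out Psme3 1418079_at ran from −0.10 to 0.00084, Psme4 1445147_at from −0.014 to 0.13, Psmf1 1424369_at from −0.086 to 0.048 and Psmf1 1451337_at from −0.025 to 0.018. Arrays with the same replicate number deviated from their group means against each other, with r of −0.13, −0.20 and −0.34 for numbers 1, 2 and 3. Between arrays of different numbers r ran from −0.24 to 0.33. Each group mean rests on 3 arrays, so these r cannot settle whether the numbers pair the arrays. With the replicate block the Psme1, Psme3 1418078_at, Psme4 1452211_at and Psmg2 1444264_at differences no longer passed 0.05, and with array weights Psme4 1426823_s_at did not.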

Other observations

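Regulators of proteasome transcription lie outside the comparisons above. Ngly1, the glycanase that processes Nfe2l1, read 9.38, 9.32 and 9.50 on the OVX arrays, against 9.25, 9.16 and 9.20 on the OVX + E2 arrays. The groups did not overlap, and the difference was −0.19 (standard error 0.055, adjusted p = 0.309 from limma), past the unadjusted 0.05, beside a median of −0.14 for its neighbours in brightness. Nfe2l1, the transcription factor that raises proteasome genes when proteasome activity is short, read 11.40, 11.70 and 11.31 on the OVX arrays, against 11.37, 11.15 and 11.17 on the OVX + E2 arrays, a difference of −0.24 (standard error 0.11), not past it, with overlap between the groups. Its relative Nfe2l2 differed by −0.15 (standard error 0.11). After cyclic loess the 3 differences were −0.052 for Ngly1, −0.098 for Nfe2l1 and −0.0091 for Nfe2l2, and none passed.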
